A study of Homo sapiens with 6 samples.

Results

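Chemokine messenger RNA was followed in LX-2, a permanent line of human hepatic stellate cells, for 10 genes whose proteins draw neutrophils, monocytes or lymphocytes. The genes were CXCL1, CXCL2, CXCL3, CXCL5, CXCL6, CXCL8, CCL2, CCL5, CCL7 and CCL20, and each was found by its name among the 21533 gene rows of every deposited table. Of the 10 genes, 9 had at least 10 reads in some sample. CCL20 had 0 reads in all 6 samples and is given as undetected. The samples were 3 transfected with control siRNA and 3 transfected with siRNA against PERK, all of them given palmitic acid and collected 24 h later. All 6 therefore share the lipid, and a sample without palmitic acid was not analysed here. The labels do not say how many siRNAs against PERK were used. Effects of the siRNA other than on PERK cannot be told apart here from those of less PERK. PERK, encoded by EIF2AK3, is a sensor of stress in the endoplasmic reticulum that phosphorylates the translation factor eIF2α, and palmitic acid is a saturated fatty acid that can set off that stress. The study asked, per its title, what PERK in stellate cells does in the setting of liver cancer.

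Chemokines are small secreted proteins that bind receptors on white blood cells and steer them along a gradient. The CXC family has 1 residue between its first cysteines, and the members that carry the residues glutamate, leucine and arginine (ELR) just before them bind CXCR2 on neutrophils. In the CC family the first cysteines are adjacent. CCL2 and CCL7 bind CCR2 on monocytes, CCL5 binds CCR1 and other receptors on T cells and monocytes, and CCL20 binds CCR6. In fibroblast-like cells many of these genes are induced by IL-1 and TNF through NF-κB and AP-1, and their short-lived messages carry AU-rich words. Activated stellate cells are known as a source of several chemokines in the injured liver.

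The family division can be read in the coding sequence, which is shown here around the first cysteines because it defines the neutrophil-drawing subset. In the CXC stretches the capitals mark the codons of the ELR residues and of the first cysteines, and in the CC stretches only the adjacent cysteine codons. The sequences are from the GENCODE v29 transcripts of GRCh38, written 5′ to 3′.
CXCL8: gctaaaGAACTTAGATGTcagTGCataaag
CXCL1: gccactGAACTGCGCTGCcagTGCttgcag
CXCL2: gccactGAACTGCGCTGCcagTGCttgcag
CXCL3: gtcactGAACTGCGCTGCcagTGCttgcag
CXCL5: ttgagaGAGCTGCGTTGCgttTGTttacag
CXCL6: ctgacaGAGCTGCGTTGCactTGTttacgc
CCL2: aatgccccagtcaccTGCTGTtataac
CCL7: aatacttcaactaccTGCTGCtacaga
CCL5: tcggacaccacacccTGCTGCtttgcc
CCL20: gcaagcaactttgacTGCTGTcttgga
All 6 CXC genes held the ELR codons and none of the 4 CC genes did. Over the whole coding sequence, CXCL2 and CXCL3 were 94.4% identical, CXCL1 and CXCL2 93.5%, CXCL5 and CXCL6 87.4%, and CCL2 and CCL7 79.1%. Reads of such close copies can be hard to place. The uniquely placed share of reads was 95.3% for CXCL2, 98.0% for CXCL3 and 99.9% or more for the other 7 genes with reads.

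On GRCh38 the 6 CXC genes lie in 1 cluster on chromosome 4. CXCL8 (ENSG00000169429) is at chr4:73740506-73743716, CXCL6 (ENSG00000124875) at chr4:73836497-73849064 and CXCL1 (ENSG00000163739) at chr4:73869393-73871242, all on the forward strand. CXCL5 (ENSG00000163735) at chr4:73995642-73998779, CXCL3 (ENSG00000163734) at chr4:74036589-74038807 and CXCL2 (ENSG00000081041) at chr4:74097035-74099293 are on the reverse strand. CCL2 (ENSG00000108691) at chr17:34255218-34257203 and CCL7 (ENSG00000108688) at chr17:34270221-34272242 start 15 kb apart on the forward strand of chromosome 17. CCL5 (ENSG00000271503) is on the same chromosome at chr17:35871491-35880793, reverse strand, and CCL20 (ENSG00000115009) is at chr2:227805739-227817564, forward strand. CXCL6 overlaps a pseudogene, PPBPP1, on its own strand, and CCL5 overlaps an antisense gene. Whether reads were counted by strand is not given in the sources used here.

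Depth ran from 17937141 to 19585872 exon reads per sample, so that 3 reads, taken as the floor of detection, corresponded to 0.153 to 0.167 CPM (reads of a gene after libraries were brought to 1 common size). EIF2AK3 itself had 12.9, 13.0 and 13.9 CPM with control siRNA, had 4.37, 4.96 and 5.51 CPM with PERK siRNA, and so fell to 37.3% of control (-1.42 on the log2 scale, SE 0.10, edgeR adjusted p = 3.0e-13). Of 10 stellate and fibroblast markers, 6 were measured. COL1A1 was abundant at 2909 ± 77.6 CPM in control and 2939 ± 13.3 CPM in PERK siRNA samples (SD, n = 3 each), while DES, LRAT, DCN and LUM were at or near 0. None of 6 neutrophil markers had a read in any sample, and 6 T and NK cell markers summed to at most 0.416 CPM. The 7 macrophage and monocyte markers summed to 81.7 to 85.1 CPM in control and 72.5 to 75.4 CPM in PERK siRNA samples, most of it CD68, with CD163 and MARCO at 0. Among the 6 hepatocyte markers only SERPINA1 had reads, and the 6 endothelial markers summed to 11.2 to 11.6 against 3.03 to 3.63 CPM.

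Of the 8 tested chemokines, 7 fell and 1 rose with PERK siRNA. All 5 tested neutrophil-drawing CXC genes and the monocyte chemokines CCL2 and CCL7 were lower, and CCL5 was higher. The falls ran from 1.76-fold for CXCL6 to 12.5-fold for CCL7. These counts stand against a background in which 35.0% of the 12973 tested genes fell and 34.4% rose at an adjusted p under 0.05, so that a fall by itself sets none of the members apart. Their size can be set beside all genes too, as a description, since the members were chosen with earlier results of these data known. Of the tested genes 3.84% were called and at least 2-fold lower, a group that held 6 of the 8 tested chemokines, and 0.671% were called and at least 4-fold lower, a group that held CXCL8, CXCL5, CXCL2 and CCL7. The median log2 fold change was -2.15 over the 5 tested CXC members and -1.57 over the 3 tested CC members, beside 0.00 over all tested genes. CXCL3 had too few reads to be tested and CCL20 had none, and neither is in these counts. RNA of whole cultures was measured, so fewer expressing cells and less RNA per cell cannot be told apart.

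**Figure D1:**
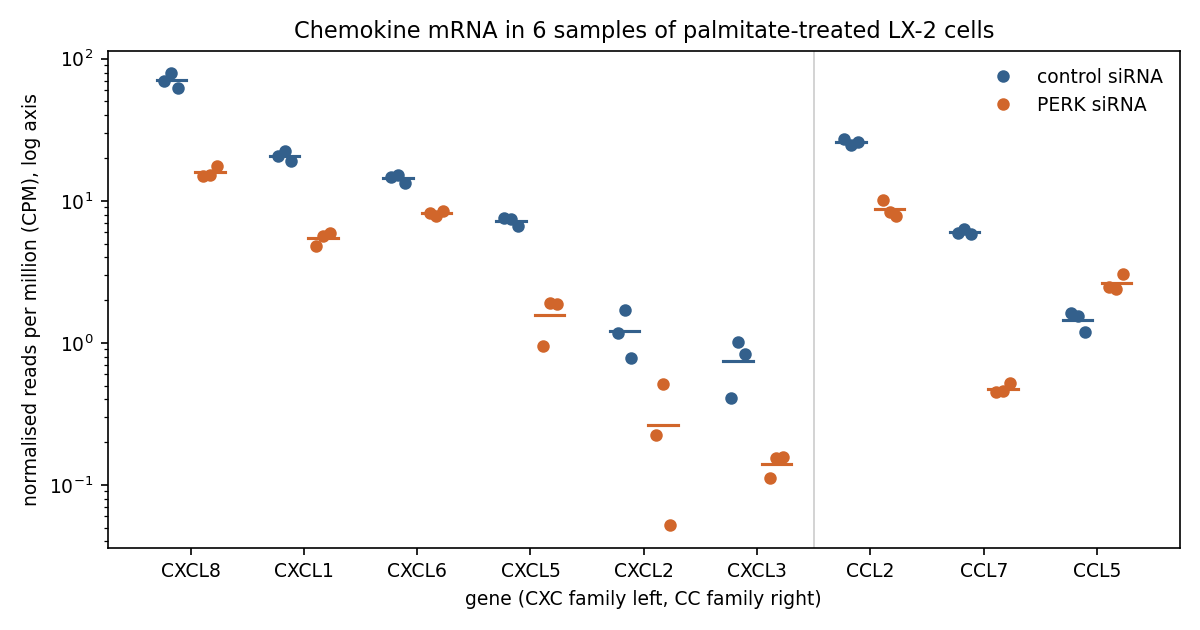
Normalised read counts (CPM, log axis) of the 9 chemokine genes with reads in each of the 6 samples. Points are samples, horizontal lines are group means of 3, and for 8 genes every PERK siRNA sample lies below every control sample, while for CCL5 it lies above.

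CXCL8, which encodes interleukin-8, the founding neutrophil chemokine in humans, reached 70.1, 78.9 and 62.7 CPM with control siRNA and 14.8, 15.3 and 17.6 CPM with PERK siRNA. The lowest control sample was far above the highest PERK siRNA sample. The means were 70.6 ± 8.13 and 15.9 ± 1.46 CPM (SD, n = 3 each), which left 22.5% of the control level. In edgeR's quasi-likelihood test the log2 fold change was -2.15 (95% interval -2.45 to -1.84, adjusted p = 1.2e-05).

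CXCL1, a CXCR2 ligand first described as a melanoma growth factor, had 20.5, 22.4 and 19.0 CPM in control and 4.82, 5.68 and 5.98 CPM in PERK siRNA samples. The groups were well apart, with 26.6% of control left. This was a change of -1.90 on the log2 scale (SE 0.09, edgeR adjusted p = 4.4e-17).

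CXCL5 and CXCL6 are close relatives in the same cluster whose proteins both draw neutrophils, and they fell by different amounts. CXCL5 was at 7.63, 7.45 and 6.62 CPM in control and 0.953, 1.89 and 1.87 CPM in PERK siRNA samples, which is a log2 fold change of -2.18 (95% interval -2.54 to -1.83, edgeR adjusted p = 5.3e-12). The first PERK siRNA sample was the lowest, and all 3 were under every control sample. CXCL6 was at 14.8, 15.1 and 13.3 CPM in control and 8.18, 7.78 and 8.53 CPM in PERK siRNA samples. Its samples were tight within each group and did not overlap, with 56.7% of control left. Its log2 fold change of -0.82 (SE 0.09, edgeR adjusted p = 2.1e-09) was the smallest of the 7 falls, and its 95% interval did not meet that of CXCL5.

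CXCL2 and CXCL3, close relatives of CXCL1 that also act on CXCR2, were scarce. CXCL2 had 23, 32 and 15 reads in control and 4, 10 and 1 reads in PERK siRNA samples, or 1.17, 1.72 and 0.776 against 0.224, 0.512 and 0.052 CPM. No control sample was as low as a PERK siRNA sample, but both groups were spread widely. Its log2 fold change was -2.17 (95% interval -3.14 to -1.21, edgeR adjusted p = 2.7e-04). Its size rested on single samples: it was -3.11 without the second PERK siRNA sample and -1.69 without the third. CXCL3 had 8, 19 and 16 reads in control and 2, 3 and 3 reads in PERK siRNA samples and did not pass the filter on low counts. Its 8 reads in all PERK siRNA samples against 43 in all control samples, set on equal depth, are 18.8% of control, with an exact 95% interval of 7.63% to 40.4% that covers counting error only. In the fit with no filter beyond 1 read CXCL3 had a log2 fold change of -2.36 (edgeR adjusted p = 9.4e-05).

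CCL2, also called MCP-1, the main chemokine that calls monocytes out of the blood, was at 27.2, 24.8 and 26.0 CPM in control and 10.1, 8.34 and 7.85 CPM in PERK siRNA samples. The highest PERK siRNA sample was below every control sample by a wide margin, and 33.8% of control was left, a log2 fold change of -1.57 (SE 0.08, edgeR adjusted p = 1.4e-16).

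CCL7, or MCP-3, which shares CCR2 with CCL2 and also acts on CCR1 and CCR3, fell most of the 8. It had 117, 118 and 112 reads in control and 8, 9 and 10 reads in PERK siRNA samples, or 5.95, 6.33 and 5.80 against 0.448, 0.460 and 0.520 CPM. Samples of a group were nearly alike, and 7.91% of control was left. The log2 fold change of -3.64 (95% interval -4.06 to -3.22, edgeR adjusted p = 1.4e-15) was the 13th largest fall among the 12973 tested genes.

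CCL5, or RANTES, a chemokine for T cells, monocytes and eosinophils, was the 1 member that rose. It had 32, 29 and 23 reads in control and 44, 47 and 59 reads in PERK siRNA samples, or 1.63, 1.55 and 1.19 against 2.47, 2.40 and 3.07 CPM. The groups did not overlap, though both were low. It rose by 0.86 on the log2 scale (95% interval 0.42 to 1.29, edgeR adjusted p = 7.3e-04). Without strand, reads of its antisense gene cannot be told apart from its own. CCL20 had 0 reads in every sample, which allows up to 0.153 to 0.167 CPM.

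All 7 falling members and CCL5 kept groups that did not overlap. Over all tested genes 36.0% had every PERK siRNA sample below every control sample and 35.8% had it above. Since the labels name no separate cultures, the p-values cover just the scatter of these 6 samples, which may be technical.

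**Figure D2:**
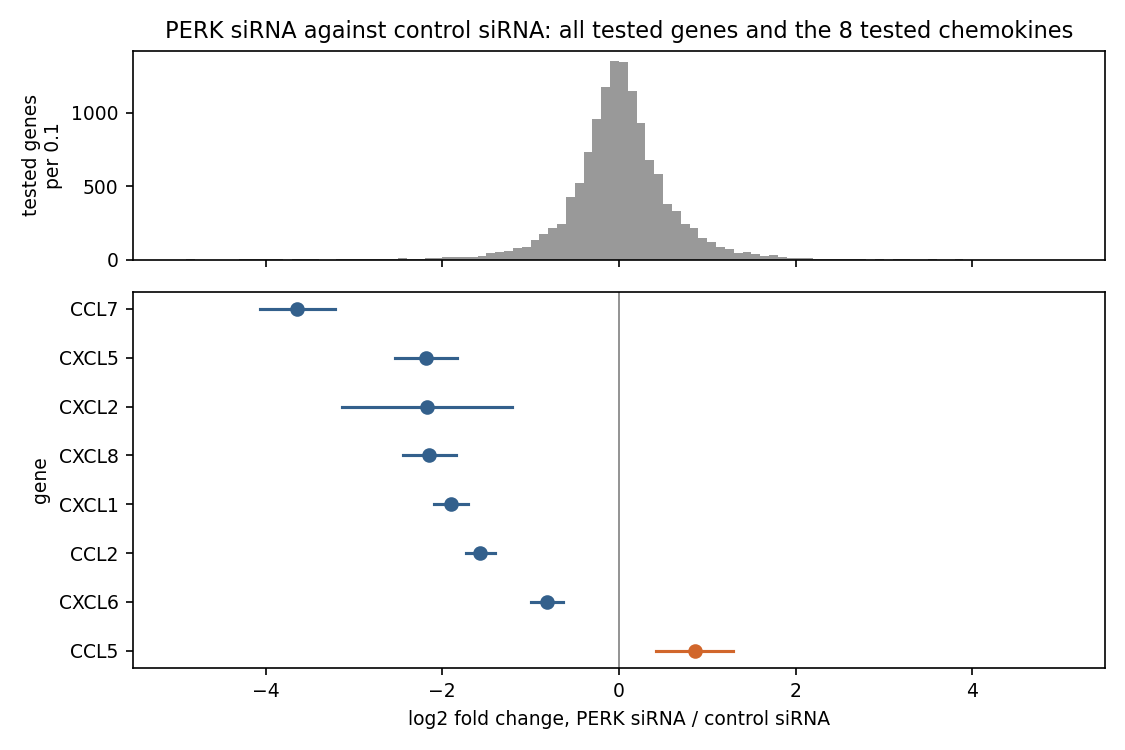
Top, the log2 fold changes (PERK siRNA over control siRNA) of all 12973 tested genes in bins of 0.1. Bottom, the 8 tested chemokines on the same axis with 95% intervals from edgeR: 7 lie below 0, from -0.82 for CXCL6 to -3.64 for CCL7, and CCL5 lies above at 0.86.

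Levels of different genes were set side by side on the deposited TPM, which corrects for exon length. In control samples CXCL8 led with 106 ± 13.1 TPM (SD, n = 3 here and for each TPM below), followed by CCL2 with 79.7 ± 3.38 and CXCL1 with 61.4 ± 5.43 TPM. Then came CXCL6 with 29.7 ± 2.21, CCL7 with 24.4 ± 1.30 and CXCL5 with 10.4 ± 0.82 TPM. These 6 had ranges that did not touch, whereas CXCL2 (3.83 ± 1.51), CCL5 (3.73 ± 0.62) and CXCL3 (2.44 ± 1.03 TPM) overlapped. In PERK siRNA samples CCL2 at 26.8 ± 3.57 and CXCL8 at 23.9 ± 2.18 TPM overlapped at the head of the order. CXCL6 at 16.7 ± 0.70 and CXCL1 at 16.3 ± 1.83 TPM overlapped next, so CXCL1 no longer stood above its weakly falling relative. CCL5 at 6.74 ± 0.92 TPM was the 5th gene in this order, above CXCL5 at 2.25 ± 0.78 and CCL7 at 1.92 ± 0.15 TPM, which overlapped. CXCL2 at 0.821 ± 0.731 and CXCL3 at 0.455 ± 0.082 TPM overlapped at its end.

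Summed over the members, chemokine mRNA was 324, 344 and 297 TPM in control and 94.3, 94.6 and 98.6 TPM in PERK siRNA samples, so that 29.8% remained. The CXC members summed to 28.2% and the CC members to 32.9% of their control sums. Within the sum the make-up shifted. CXCL8 took 33.0% ± 1.69 of it in control and 24.9% ± 1.64 in PERK siRNA samples, and CCL7 took 7.58% ± 0.22 and 2.00% ± 0.11. The share of CXCL6 was 9.22% ± 0.14 in control and 17.5% ± 0.42 in PERK siRNA samples, and that of CCL5 was 1.16% ± 0.13 and 7.02% ± 0.77 (SD, n = 3 each). In each of these 4 genes the shares of the groups did not overlap. Shares of the same sum depend on each other, and no such shares of other genes were set beside them.

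**Figure D3:**
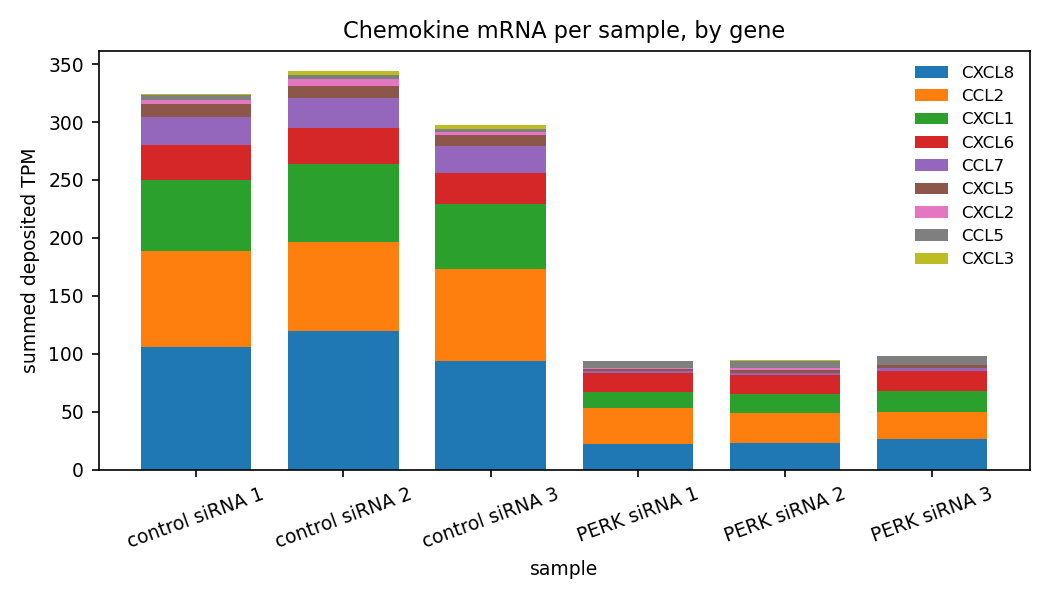
Deposited TPM of the 9 chemokine genes with reads, stacked for each of the 6 samples. The control bars reach 297 to 344 TPM and the PERK siRNA bars 94.3 to 98.6 TPM, with CXCL6 and CCL5 taking a larger share of the shorter bars.

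Ratios of reads within a sample compare the changes of 2 related genes without any scaling of the library. The 4 pairs were chosen after the values were seen. CXCL5 had 0.515, 0.493 and 0.498 reads for each CXCL6 read in control and 0.116, 0.243 and 0.220 in PERK siRNA samples, a log2 difference of -1.45. CCL7 had 0.219, 0.255 and 0.223 reads for each CCL2 read in control and 0.0442, 0.0552 and 0.0662 in PERK siRNA samples, a log2 difference of -2.09. In both pairs the partner of lower count in control lost more. CCL5 had 0.0598, 0.0628 and 0.0457 reads for each CCL2 read against 0.243, 0.288 and 0.391, a log2 difference of 2.44. For CXCL1 and CXCL8, which fell by nearly the same factor, the ratio was 0.293, 0.283 and 0.304 against 0.325, 0.371 and 0.340, a log2 difference of only 0.23. The groups of all 4 ratios did not overlap. The exact two-sided permutation p was 0.1 for each, also after Benjamini-Hochberg adjustment over the 4 pairs. That is the smallest p that 3 samples against 3 allow, so it only restates the lack of overlap. How often ratios of other gene pairs do not overlap was not counted.

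The 150 bases upstream of the start are shown for CXCL1 and CXCL8, the leading neutrophil chemokines, for the pair CXCL5 and CXCL6, which fell unequally, and for CCL7, which fell most. Sequences are RefSeq's on GRCh38.p14, read 5′ to 3′ on the gene's strand and ending just before the start, with capitals on a κB match. They lie at chr4:73869243-73869392 (CXCL1, forward), chr4:73740419-73740568 (CXCL8, forward), chr4:73998678-73998827 (CXCL5, reverse), chr4:73836528-73836677 (CXCL6, forward) and chr17:34270071-34270220 (CCL7, forward).
CXCL1: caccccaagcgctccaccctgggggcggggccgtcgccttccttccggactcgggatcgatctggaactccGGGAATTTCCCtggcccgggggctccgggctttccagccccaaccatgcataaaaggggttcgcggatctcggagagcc
CXCL8: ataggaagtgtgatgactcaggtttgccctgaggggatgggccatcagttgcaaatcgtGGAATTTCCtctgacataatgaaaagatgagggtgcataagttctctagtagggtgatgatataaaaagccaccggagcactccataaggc
CXCL5: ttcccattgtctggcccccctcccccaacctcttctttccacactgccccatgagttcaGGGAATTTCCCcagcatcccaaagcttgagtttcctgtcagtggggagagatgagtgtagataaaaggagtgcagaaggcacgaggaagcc
CXCL6: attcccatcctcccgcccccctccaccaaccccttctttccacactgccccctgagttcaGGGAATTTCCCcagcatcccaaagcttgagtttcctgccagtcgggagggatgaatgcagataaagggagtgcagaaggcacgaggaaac
CCL7: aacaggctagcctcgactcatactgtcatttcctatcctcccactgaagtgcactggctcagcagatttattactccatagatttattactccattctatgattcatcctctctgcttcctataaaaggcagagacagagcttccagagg
The word GGAATTTCC, a core that NF-κB dimers are known to bind, was searched on both strands from 250 bases before to 50 after the start. It stood in all 6 CXC promoters, beginning 77 to 78 bases before the start in CXCL1, CXCL2 and CXCL3 and 89 to 91 bases before it in CXCL5, CXCL6 and CXCL8. Among the 35116 promoters given by RefSeq, 0.461% held it. The looser κB decamer, which overlaps this core in 5 CXC genes, was also found in CCL20 and in 11.3% of all promoters. The AP-1 word TGANTCA was found in CXCL8 and CCL7 and in 7.71% of promoters, and TATAAA in CXCL8, CCL7 and CCL20 and in 11.5%. Promoters of 8 of the 10 members were matched, those of CCL2 and CCL5 not among them. The 250 upstream bases of CXCL5 and CXCL6 were 85.6% identical and those of CXCL1 and CXCL3 84.0%. CXCL6, with the smallest fall, and CXCL5, with 1 of the 4 falls of at least 4-fold, carry the same core within these similar upstream stretches. A match is a description of the letters and not a site of binding.

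Neighbours of the members were compared by position. Between and beside the 6 CXC genes, the platelet chemokine genes PF4, PF4V1 and PPBP had 0 reads in all samples. Within 300 kb of a member lay 44 protein-coding genes that are no members, of which 24 had no reads and 9 were tested. On chromosome 4 both tested neighbours fell. AFP, the gene of alpha-fetoprotein, had 19, 20 and 21 reads in control and 2, 5 and 10 reads in PERK siRNA samples (-1.77 on the log2 scale, SE 0.40, edgeR adjusted p = 2.5e-04), and MTHFD2L, a mitochondrial folate enzyme next to CXCL2, fell by 1.07 (SE 0.19, adjusted p = 1.0e-05). Near CCL2 and CCL7 the further monocyte chemokine genes CCL8 and CCL13, and CCL1, had 0 reads, and no neighbour there was tested. Around CCL5, the adaptor gene AP2B1 (0.25), the transcription factor gene TAF15 (0.39) and RDM1 (0.47) rose, and RASL10B did not pass the test (-0.06, adjusted p = 0.46). Around the silent CCL20, AGFG1 rose (0.18) and SLC19A3 did not pass the test (-0.24, adjusted p = 0.58). In all, 3 of 9 tested neighbours fell and 4 rose, beside 35.0% and 34.4% of all tested genes.

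**Figure D4:**
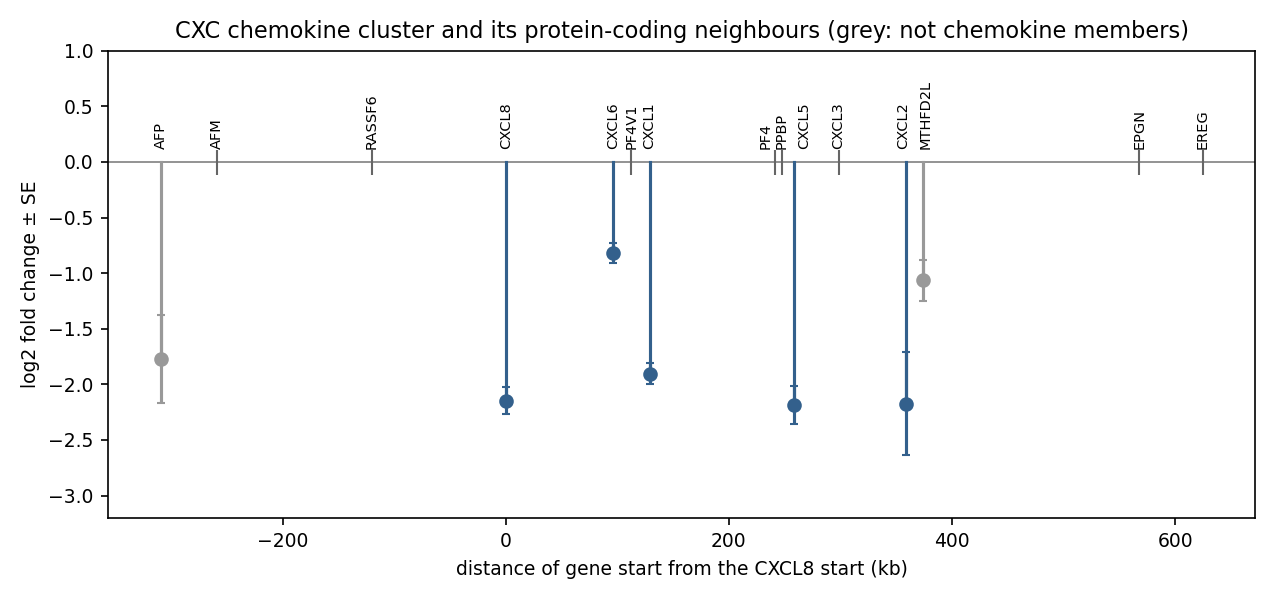
Log2 fold change (PERK siRNA over control siRNA, bars ± SE) of protein-coding genes of the CXC cluster and within 300 kb of it, against the distance of the gene's start from that of CXCL8 in kb. Blue marks members, grey other tested genes and short ticks at 0 genes that were not tested, CXCL3 among them; the 5 tested members lie between -0.82 and -2.18.

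The 3′ untranslated regions of the members differ in AU-rich words, which proteins such as tristetraprolin are known to bind in short-lived mRNAs. In the stretches of 30 bases with the most copies, shown 5′ to 3′ from the GENCODE v29 transcripts for 4 genes, capitals mark the pentamer ATTTA.
CXCL2: gtcttctATTTATTTATTTATTTATTTAtt
CXCL1: taggagaagtcttctATTTATTTATTTAtt
CXCL8: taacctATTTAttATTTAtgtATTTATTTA
CXCL5: caaacaatttgaatataaATTTAtcATTTA
Over the whole region the pentamer, overlapping copies included, was counted 11 times in CXCL5, 10 in CXCL2, 9 in CXCL8, 7 in CXCL3, 6 in CXCL6 and 5 in CXCL1. CCL20 held 3, CCL2 and CCL7 1 each and CCL5 none. Among 12637 tested genes with such a region 70.8% held the word and the median was 2. The longer word TTATTTATT was found in CXCL2 (5 copies), CXCL1 (3), CXCL3 and CXCL8 (1 each), and in 8.69% of those genes. In the order of their pentamer counts, the log2 fold changes were -2.18 for CXCL5, -2.17 for CXCL2, -2.15 for CXCL8, -0.82 for CXCL6 and -1.90 for CXCL1. They were -1.57 for CCL2 and -3.64 for CCL7, with 1 pentamer each, and 0.86 for CCL5, with none. A relation between counts and changes was not tested.

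The rest of the chemokine system was mostly silent. Of 34 other chemokine genes, 22 had no reads and 4 could be tested, of which 2 rose and 1 fell (median log2 fold change 0.49). CXCL12, the stromal chemokine that binds CXCR4, was the most abundant of them and did not pass the test, at 241 ± 12.1 CPM in control and 246 ± 2.10 CPM in PERK siRNA samples (0.03, edgeR adjusted p = 0.32). CXCL16, a membrane-bound ligand of CXCR6, rose from 6.06 ± 0.16 to 12.7 ± 1.15 CPM (1.07, edgeR adjusted p = 7.0e-11). CX3CL1, fractalkine, fell from 0.831 ± 0.082 to 0.122 ± 0.057 CPM (-2.69, edgeR adjusted p = 1.2e-05; SD, n = 3 each). Its reads were 18, 14 and 16 in control and 1, 3 and 3 in PERK siRNA samples. The latter lie at or under the floor of 3 reads, so the size of this fall is uncertain. CCL26, an eosinophil chemokine, rose from 0.556 ± 0.036 to 1.07 ± 0.157 CPM (0.95, edgeR adjusted p = 0.0092), a call that DESeq2 did not make (adjusted p = 0.10). The receptors for the members were near or at 0, with CXCR1 and CCR2 at 0 reads, and 2 of 23 chemokine receptor genes could be tested. CCRL2, a non-signalling receptor, fell from 2.29 ± 0.09 to 0.685 ± 0.110 CPM (-1.73, edgeR adjusted p = 7.1e-07). CCR10 rose from 5.22 ± 0.54 to 6.68 ± 0.43 CPM (0.36, edgeR adjusted p = 0.0089), which DESeq2 did not call.

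Among genes of proteins that hold chemokines at the cell surface or cut them, 9 of 11 tested fell and 1 rose (median log2 fold change -0.74), beside 35.0% lower and 34.4% higher among all tested genes. MMP9, a gelatinase that trims CXCL8 and other CXC chemokines, fell from 69.4 ± 3.45 to 18.9 ± 0.55 CPM (-1.88, edgeR adjusted p = 3.0e-23). The heparan sulfate carrier SDC1 (-0.78) and the proteases MMP14 (-0.74) and MMP2 (-0.54) fell too. Other genes known to be induced by IL-1 and NF-κB in mesenchymal cells fell in 7 of 9 tested and rose in none (median -1.41), against the same shares over all tested genes. Like the list before it, this list was chosen with earlier results of these data known, so its shares are a description. IL1B, the cytokine in the study's title, fell from 64.4 ± 2.90 to 20.3 ± 2.82 CPM (-1.67, edgeR adjusted p = 2.3e-11). The cytokine genes IL11 (-0.96) and LIF (-1.41) and ICAM1 (-0.84), an adhesion molecule for neutrophils, fell as well.

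The route from the IL-1 and TNF receptors to NF-κB was split, with 8 of its 18 tested genes higher and 8 lower (median 0.00). The adaptor TAB2 (1.55) and the kinase MAP3K7 (0.56), which act together below these receptors, rose, while the receptor TNFRSF1A (-0.50) and the kinase IRAK2 (-1.25) fell. In the test against a 1.2-fold change, which also called fewer of all genes, these and IL1RAP (-0.51) alone kept their calls. Most of the split is thus of small changes. Of 11 genes of NF-κB subunits and inhibitors, 8 fell and 2 rose (median -0.39). The subunit genes RELB (-0.98) and RELA (0.49) moved apart, as did the inhibitor genes NFKBIE (-0.65) and TNFAIP3 (0.62). Among 13 AP-1, C/EBP and related factors 3 rose and 4 fell (median 0.02), with FOSL2 (0.52) and SP1 (0.53) higher and CEBPB (-0.68) and JUNB (-0.69) lower. Among 13 genes tied to mRNA stability, not all of them through AU-rich words, 5 rose and 3 fell (median 0.10). KHSRP, a decay factor, rose (0.38), as did the kinase gene MAPKAPK3 (0.62), while HNRNPD (-0.40) and RC3H2 (-0.51) fell. The interferon route, which is known to act on the CCL5 promoter, had 7 of 17 tested genes higher and 3 lower (median 0.19). IFIT2 rose from 9.81 ± 0.33 to 18.3 ± 1.10 CPM (0.90, edgeR adjusted p = 3.3e-11) and IFIT1 from 13.6 ± 0.76 to 21.1 ± 1.41 CPM (0.64, adjusted p = 5.8e-09). The 3 lower genes were the interferon regulatory factor genes IRF1 (-0.59), IRF7 (-0.64) and IRF3 (-0.37). A part of this route in the rise of CCL5 was not tested. IRF9 was higher (0.77), but the uniquely placed share of its reads was 12.4% and the call was lost on unique reads (adjusted p = 0.26). Over all tested genes the shares were 34.4% higher and 35.0% lower.

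**Figure D5:**
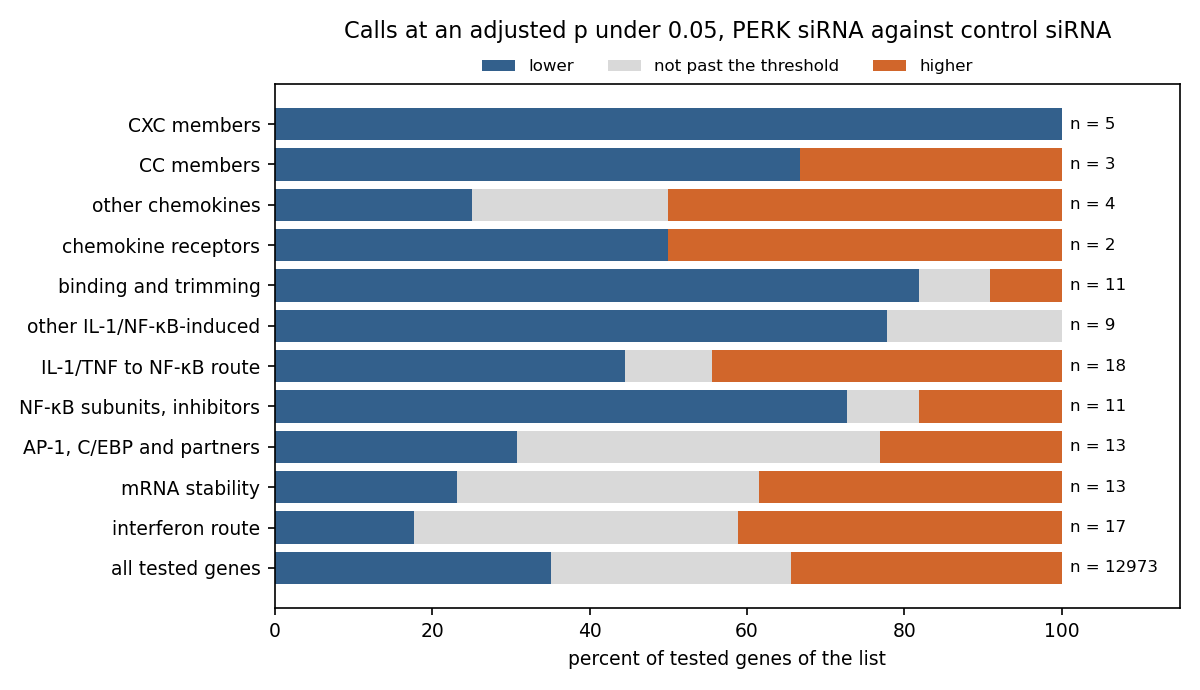
Percent of the tested genes of each list that were lower (blue), not past the threshold (grey) or higher (orange) in PERK siRNA samples at an edgeR adjusted p under 0.05, with the number tested beside each bar. All tested genes, in the lowest bar, were 35.0% lower and 34.4% higher.

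The markers of other cells moved as follows beside the members. CSF1R, the receptor for the macrophage growth factor, fell from 5.03 ± 0.44 to 0.558 ± 0.255 CPM (-3.14) and CD14 from 9.90 ± 0.40 to 7.11 ± 0.24 CPM (-0.48), while CD68 did not pass the test (-0.05, edgeR adjusted p = 0.20). PECAM1 fell from 8.95 ± 0.05 to 0.632 ± 0.113 CPM (-3.80), and KDR and VWF did not pass the test. Among the stellate markers COL3A1 fell (-0.89) and ACTA2 (1.95), COL1A2 (from 11.8 ± 0.28 to 27.1 ± 1.62 CPM) and RGS5 (0.99) rose. The part of these shifts in the chemokine result was not tested.

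Genes whose profile over the 6 samples was most like that of CXCL8 were SEMA3D, PEG10, ST3GAL5, TOMM20 and WWTR1, among 10024 candidates. Their root mean square distance from CXCL8 was 0.11 to 0.12 on the log2 scale, with each gene centred on its own mean. For CCL2 they were VDR, LRRC17, TSPAN18, C8orf58 and ATP13A3, at 0.10 to 0.12, with 66.5% of C8orf58 reads placed uniquely. The members and genes of low level were left out of the candidates beforehand, so no member could appear among these genes. The likeness describes 6 samples in 2 groups, so it is mostly the size of the shared fall, as in SEMA3D (-2.08) and PEG10 (-2.19) for CXCL8 and VDR (-1.50) and LRRC17 (-1.68) for CCL2.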

How the data were processed

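RNA was measured in 6 samples, grouped by their titles. The deposited tables held counts per gene (total and unique exon reads) and TPM, which the authors computed from total exon reads and exon length, per the file headers and the values. Per the submitters' processing notes, the genome was hg38. The library kit keeps strand, per the labels' protocols. For the aligner, counter and annotation: not given in the sources used here. Total exon reads of 12973 genes that passed edgeR's default filter were tested with edgeR's quasi-likelihood test (edgeR 4.0.16, limma 3.58.1, R 4.3.3) with TMM scaling, robust dispersion and Benjamini-Hochberg adjustment over all tested genes, with a threshold of 0.05. CPM are scaled by TMM factors. TPM was used only to compare genes and was not tested. Alternatives were other scalings, filters and tools (DESeq2 1.42.0, limma-voom), unique reads, a test against a 1.2-fold change, the replicate number as a block, and each sample left out. Members and gene lists were chosen with earlier results of these data known. Text names the members, EIF2AK3, tested neighbours, up to 4 genes per list with the smallest adjusted p, and the 5 genes most like CXCL8 and CCL2. Of the genes so taken, 1 is not reported here. Any other name was picked with its values known. Sequences were counted in Python 3.11.15.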

Additional observations from a re-analysis of the deposited data

How the results depend on the processing

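Every tested member kept its direction and its call under each alternative that could test it, 16 for CXCL2 and 17 for each of the others. Between 6 and 8 members were lower and 1 was higher. The log2 fold change ran from -2.23 to -2.06 for CXCL8, -1.97 to -1.82 for CXCL1, -2.34 to -1.94 for CXCL5, -0.88 to -0.78 for CXCL6, -3.11 to -1.69 for CXCL2, -1.68 to -1.50 for CCL2, -3.71 to -3.59 for CCL7 and 0.73 to 0.95 for CCL5. The highest adjusted p for CCL5 was 0.017, with DESeq2, and for CXCL2 0.0037, without PERK siRNA replicate 1. CXCL3 was tested only under 6 alternatives and was lower in all of them. With a sample left out, it passed the filter on low counts through its control reads (8, 19 and 16). Its PERK siRNA samples had 2, 3 and 3 reads, so those fits add no support for a fall. The number of all tested genes called fell from 9014 to 4689 (2345 higher and 2344 lower) in the test against a 1.2-fold change, which asks for a larger difference, and was 7554 with DESeq2 and 8543 to 8721 with a sample left out. With the replicate block it was 9003, with 7 members lower and 1 higher. Deviations from the group means were nearly uncorrelated between same-numbered samples (correlations over genes of 0.01, -0.03 and -0.03). Counting noise enters these deviations, so they cannot show whether same-numbered samples shared a culture or batch. Another scaling moved the median of all genes by at most 0.02. Depth limits CXCL2, CXCL3 and CCL5, whose intervals are wide, and CCL20 below the floor of 3 reads.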

Other observations

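The κB core word of the 6 CXC promoters was also looked for in the promoters of other tested genes, a choice made after the values were seen. It was found in 58 tested genes that are no members, of which 23 were lower, 20 higher and 15 not called, with a median log2 fold change of -0.04, beside 35.0% lower and 34.4% higher among all tested genes. Of the 58, 4 were at least 2-fold lower and called, beside 3.84% of all tested genes, among them MSANTD3 (-2.43) and TNFRSF9 (-2.37), a TNF receptor family member of activated lymphocytes, and 2 at least 2-fold higher, among them GFRA1 (3.25), a receptor for glial-derived growth factors. Those 3 genes were named after their values were seen. The looser κB decamer was found in 1822 such genes, of which 618 were lower and 688 higher, with a median of 0.02. These are descriptions of shared letters and were not tested.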
